A study of Homo sapiens with 9 samples.

Results

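The genes described here are 57 regulators of chromatin: writers and erasers of histone methylation and acetylation, Polycomb and SWI/SNF subunits, CHD remodellers, corepressors, acetyl-lysine readers and enzymes of DNA methylation. They were taken as a list of names, and an Argonaute (Ago) peak was assigned to a gene when the peak's midpoint lay in the hg19 gene body on the same strand. All 57 names were found among 20163 protein-coding genes, and together they held 249 of the 8460 deposited peaks, 38 of the 3450 in the miR-342-3p list and 211 of the 5010 in the miR-342-5p list. The peaks come from Ago-HITS-CLIP, in which RNA is crosslinked to Ago by UV light, immunoprecipitated and sequenced. The cells were MDA-MB-231HM, a highly metastatic variant of the triple-negative breast cancer line MDA-MB-231, transfected for 48 h with 20 nM of a miRVana mimic of miR-342-3p, a mimic of miR-342-5p or a negative control mimic, with 3 libraries of each. Each list merges the 3 libraries of a mimic and scores every peak by its reads above the negative control, with 5 the lowest score listed. The lists hold no value per library and no read depth, so there is no replicate error, the tests below compare one merged list with the other over peaks, and both lists share the same control libraries. The lists hold no mRNA levels, so more Ago on a transcript and more copies of that transcript cannot be told apart.

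Ago carries a miRNA to an mRNA mainly through pairing of the miRNA seed, and sites in the 3′UTR are the ones best known for lowering mRNA level and translation, while sites in coding sequence are usually weaker. Chromatin regulators deposit, remove or read marks on histones and DNA or move nucleosomes, and many are large multidomain proteins with long disordered stretches rich in proline. Both strands of the miR-342 hairpin can load into Ago, and they differ in seed and therefore in the sites they pair with.

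The mature sequences are shown because every site count below follows from them. They are from RefSeq, 5′ to 3′, with the seed (bases 2 to 8) in capitals.
miR-342-3p: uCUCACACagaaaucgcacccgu
miR-342-5p: aGGGGUGCuaucugugauuga
The site opposite the miR-342-3p seed is GUGUGAGA as an 8mer and GUGUGAG or UGUGAGA as a 7mer. For miR-342-5p it is GCACCCCA as an 8mer and GCACCCC or CACCCCA as a 7mer, and its core, CACCCC, is rich in cytosine. A peak was said to have a site when one of these lay within 50 nt of its summit on the strand of the gene.

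The sites printed next are those of the peaks that carry the results, with 10 bases on each side and the site in capitals. The miR-342-5p sites lie in coding exons, except that of TET3.
KMT2A coding: uagaaacaagGCACCCCAggaaccucca
BRD2 coding: acaucauuaaGCACCCCAuggaccucag
ARID1A coding: ccgugucucuGCACCCCcuggcaccaa
ARID2 coding: aucaccacauCACCCCAaccugugcaa
SETD1B coding: gaacucucgcCACCCCAgccccucuuc
TET3 3′UTR: aagggcagauGCACCCCAggccagcccc
In hg19 these sites are at chr11:118348765-118348772 (KMT2A), chr6:32944686-32944693 (BRD2), chr1:27101114-27101120 (ARID1A), chr12:46244380-46244386 (ARID2), chr12:122261476-122261482 (SETD1B) and chr2:74330031-74330038 (TET3), all on the plus strand. The peaks on them scored 360, 249, 110, 94, 56 and 19, in that order. The miR-342-3p sites lie in 3′UTRs, except that of KMT2C.
EP300 3′UTR: uaaauaaacuGUGUGAGAcagacacccu
NSD1 3′UTR: uauuuaucauGUGUGAGAauaauaaaua
DNMT1 3′UTR: ugaagcuguuGUGUGAGguucgcuuau
HDAC7 3′UTR: ugaggcguguGUGUGAGcgugugugug
KMT2C coding: agugcacuguGUGUGAGgccuguggga
These are at chr22:41576068-41576075 (EP300, plus strand), chr5:176724435-176724442 (NSD1, plus), chr19:10244200-10244206 (DNMT1, minus), chr12:48176637-48176643 (HDAC7, minus) and chr7:151921645-151921651 (KMT2C, minus). Their peaks scored 54, 23, 56, 116 and 46. The HDAC7 site is one of 4 under the same peak, in a repetitive stretch rich in G and U whose longest unbroken run of these bases is 12 nt, and the KMT2C peak has 4 near-copies elsewhere in the genome, so its reads may belong to another locus.

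Ago was found on more of these mRNAs, and at many more positions, with the miR-342-5p mimic than with the miR-342-3p mimic. A miR-342-5p peak lay in 36 of the 57 genes (63.2%, 95% Wilson interval 50.2 to 74.5), against 11.8% of all protein-coding genes and 22.5% of those with at least 3 kb of coding sequence. A miR-342-3p peak lay in 25 genes (43.9%, interval 31.8 to 56.7), against 11.8% of all and 21.6% of the long genes. The intervals cover counting error only. Among peaks with a score above 50 the order of the gene counts turned, with a miR-342-3p peak in 8 genes and a miR-342-5p peak in 7. The chromatin regulators have a median coding sequence of 4.97 kb and a median 3′UTR of 1456 nt, against 1.28 kb and 869 nt over all protein-coding genes.

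The 2 lists met in 19 genes, while 17 had miR-342-5p peaks alone, 6 miR-342-3p peaks alone (NSD1, EZH1, EED, KDM5C, KDM2A and HDAC4) and 15 neither. The number of miR-342-5p peaks was the larger in 29 genes and that of miR-342-3p in 7. No gene had more than 3 miR-342-3p peaks, while SETD1B had 27 of miR-342-5p. The 5 genes with most miR-342-5p peaks (SETD1B, KMT2A, ARID1A, EP300 and KDM6B) held 92 of the 211. No peak of one list overlapped a peak of the other, and the share of overlapping peaks over all genes is not given here. Measured along the genome, introns included, the nearest pair of summits was 116 nt apart, in EP300, and the median over the 19 shared genes was 2785 nt.

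**Figure D1:**
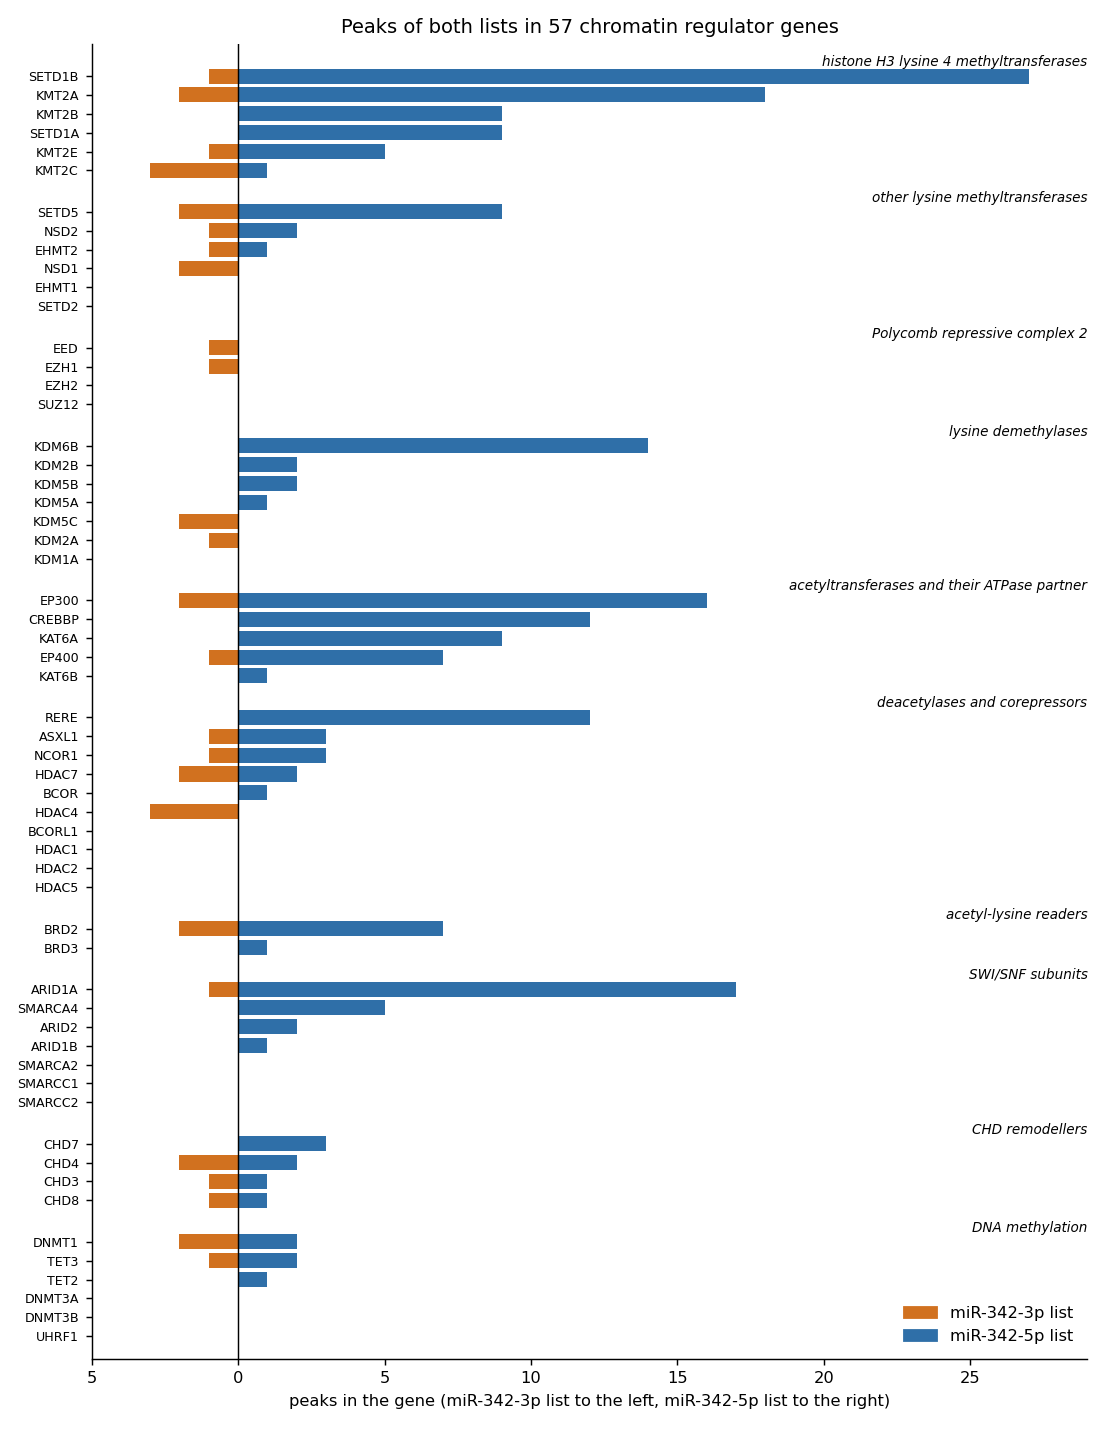
Peaks in each of the 57 chromatin regulators, grouped by role, with miR-342-3p peaks to the left of 0 and miR-342-5p peaks to the right. The miR-342-5p bars reach 27 (SETD1B) and exceed 10 in SETD1B, KMT2A, ARID1A, EP300, KDM6B, CREBBP and RERE, while no miR-342-3p bar exceeds 3.

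The lists also differed in where on the mRNA the peaks lay. Of the miR-342-5p peaks, 199 of 211 (94.3%, interval 90.3 to 96.7) were in coding exons, against 20 of 38 (52.6%, interval 37.3 to 67.5) of the miR-342-3p peaks. This was a gap of 41.7 percentage points with an odds ratio of 14.9 (Fisher's exact p = 9.02e-10, 3.61e-09 after Benjamini-Hochberg adjustment over the 8 tests of this kind made here). Peaks in 3′UTRs ran the other way, with 8 of 211 (3.79%) in the miR-342-5p list and 12 of 38 (31.6%) in the other (Fisher's exact p = 1.59e-06, adjusted 4.23e-06).

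Over all genes the coding share was 72.4% (miR-342-5p) and 57.4% (miR-342-3p), so the order was the same and the gap smaller. Peaks within a gene are not independent. With the highest peak of each gene alone, coding exons held 33 of 36 peaks of the miR-342-5p list and 15 of 25 of the other (Fisher's exact p = 0.00436), and 3′UTRs 1 of 36 and 8 of 25 (p = 0.00236). The remaining miR-342-3p peaks were 4 in introns and 2 in 5′UTRs, and the remaining miR-342-5p peaks 3 in introns and 1 in a 5′UTR.

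Per kb of coding sequence, summed over the 292.109 kb of the 57 genes, there were 0.681 miR-342-5p peaks (95% exact Poisson interval 0.590 to 0.783), against 0.101 over all protein-coding genes. For miR-342-3p there were 0.0685 (interval 0.0418 to 0.106), against 0.0548 over all genes. The miR-342-3p interval thus took in the density of all genes, and the miR-342-5p interval lay above it. These intervals treat peaks as independent, and the density of all genes counts genes without a peak too. Among genes with a coding peak in the list, the order turned. Their median per kb for miR-342-5p was 0.574 in 34 chromatin regulators, against 0.775 in 1763 genes over all. For miR-342-3p it was 0.201 in 17, against 0.618 in 1398. Without SETD1B the miR-342-5p density was 0.604. Another 99 chromatin genes, listed by name, had 0.622 miR-342-5p peaks per kb (interval 0.541 to 0.711) and 89.0% of their miR-342-5p peaks in coding exons, beside the 0.681 and 94.3% of the 57, a difference that was not tested.

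The 6 genes grouped here with the histone H3 lysine 4 methyltransferases, a family that marks active promoters and enhancers, had the most miR-342-5p peaks of any role. These were 69, of which 66 were coding, in 51.7 kb of coding sequence (1.28 per kb), beside 7 miR-342-3p peaks. Per kb, the acetyl-lysine readers (1.28) and the acetyltransferases with EP400 (1.24) were close to them. SETD1B, a catalytic subunit of a COMPASS complex, had 27 miR-342-5p peaks with scores up to 56, of which 26 lay in coding exons (4.41 per kb), and 1 miR-342-3p peak with score 16. Its coding miR-342-5p summits ran from nt 14 to nt 5722 of a coding sequence of 5.898 kb, so they were spread, with gaps, along nearly its whole length. Its paralog SETD1A had 9 miR-342-5p peaks, 7 coding and 2 in the 3′UTR, and none of miR-342-3p.

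KMT2A, the methyltransferase rearranged in MLL leukaemia, had the highest peak in the 57 genes, with score 360, on the 8mer printed above, at a position that a second annotated gene on that strand also spans. It had 18 miR-342-5p peaks, all coding (1.5 per kb), and 10 of their summits fell within 1000 nt starting at nt 9313. Both of its miR-342-3p peaks were coding, scored 28 and 17, and had no site. KMT2B, its closest paralog, had 9 miR-342-5p peaks with scores up to 20, between nt 617 and nt 1960, and none of miR-342-3p. The longest member of the family here, KMT2C, with 14.904 kb of coding sequence, had 1 miR-342-5p peak with score 12, so paralogs differed widely. Its 3 miR-342-3p peaks, with scores 46, 23 and 14, all had a site, but 2 of the 3 had near-copies elsewhere. KMT2E had 5 miR-342-5p peaks in coding exons, and its single miR-342-3p peak was in the 3′UTR.

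Acetyltransferases and their ATPase partner EP400 had 45 miR-342-5p peaks, all in coding exons (1.24 per kb), and 3 miR-342-3p peaks. EP300, the coactivator p300, had 16 miR-342-5p peaks with scores up to 28, packed between nt 5351 and nt 7045 of its 7.242 kb coding sequence with a median gap of 113 nt. None had a site, and the EP300 coding sequence holds no 7mer or 8mer for miR-342-5p. Its miR-342-3p peaks were a coding one with score 109, at nt 7161, just past that block, and one with score 54 on the 3′UTR 8mer.

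CREBBP, the paralog of EP300, had 12 miR-342-5p peaks (1.64 per kb) with scores up to 45 and none of miR-342-3p. KAT6A, a MYST-family acetyltransferase, had 9, with scores up to 115 and all within 1000 nt, between nt 4462 and nt 5432, whereas KAT6B had 1. EP400 had 7 miR-342-5p peaks, and its single miR-342-3p peak has a near-copy elsewhere.

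**Figure D2:**
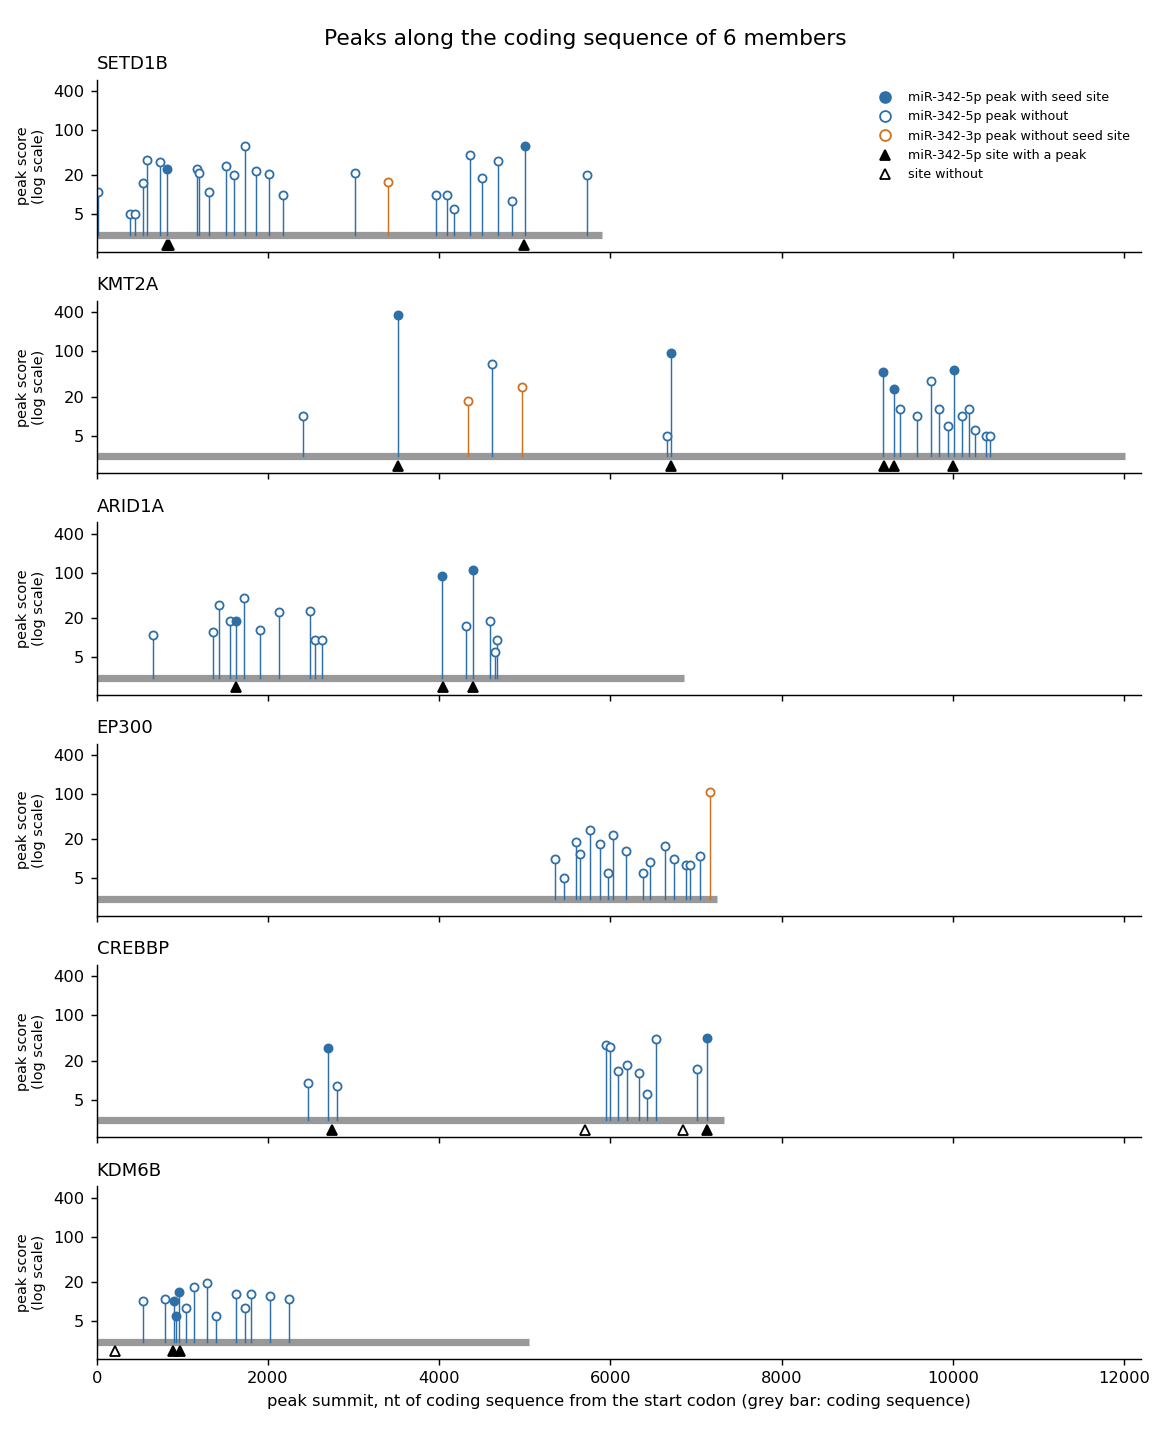
Peaks along the coding sequence of 6 chromatin regulators: the x axis gives the summit in nt from the start codon, the y axis the peak score on a log scale, filled circles mark peaks with an own seed site, and triangles mark miR-342-5p sites with (filled) and without (open) a peak. In EP300 the miR-342-5p summits lie between nt 5351 and nt 7045 with no site, while all 5 sites of KMT2A carry a peak, the highest at 360.

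Among the 7 lysine demethylases, KDM6B, which removes H3K27 methylation, had 14 of the 19 miR-342-5p peaks. Of these, 13 were coding (2.58 per kb) and 1 was intronic, with scores no higher than 19. KDM5A, KDM5B and KDM2B had 1, 2 and 2. KDM5C, an H3K4 demethylase, had the opposite pattern, with no miR-342-5p peak and 2 coding miR-342-3p peaks (scores 54 and 10, 0.427 per kb), of which the lower has a near-copy elsewhere. KDM2A had 1 miR-342-3p peak, with score 23, on a 3′UTR site.

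Among SWI/SNF subunits, ARID1A, a DNA-binding subunit often mutated in cancer, had 17 of the 25 miR-342-5p peaks (2.33 coding peaks per kb) and scores up to 110. Its only miR-342-3p peak, with score 58, was in the 3′UTR and was the only one in the 7 subunits. SMARCA4, the catalytic subunit, had 5 miR-342-5p peaks. ARID2 had 2, the higher scoring 94, and ARID1B had 1, while SMARCA2, SMARCC1 and SMARCC2 had no peak in either list.

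In the group of deacetylases and corepressors, RERE, an atrophin-family corepressor, had 12 of the 21 miR-342-5p peaks (2.55 per kb) and none of miR-342-3p. NCOR1 had 3, the highest scoring 58, and 1 miR-342-3p peak. ASXL1, a Polycomb-group cofactor, had 3 and 1, and BCOR 1 and 0. Of the class IIa deacetylases, HDAC7 had a miR-342-3p peak of score 116 on its 4 3′UTR sites, another with score 11 and 2 coding miR-342-5p peaks. HDAC4 had 3 neighbouring intronic miR-342-3p peaks (scores 12, 9 and 8) and HDAC5 none.

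The acetyl-lysine reader BRD2 had 7 miR-342-5p peaks, 5 coding (1.99 per kb) and 2 in the 3′UTR, the highest scoring 249 on an 8mer. It had 2 miR-342-3p peaks with scores 17 and 12 (0.399 coding peaks per kb). BRD3 had 1 miR-342-5p peak. Among the remaining methyltransferases, SETD5 had 9 miR-342-5p peaks, 8 coding (1.81 per kb) and 1 in the 5′UTR, with scores up to 47. It also had 2 miR-342-3p peaks (scores 22 and 19, 0.226 coding peaks per kb). NSD2, an H3K36 methyltransferase, had a coding miR-342-3p peak of score 89 and 2 miR-342-5p peaks. NSD1, its paralog, had 2 3′UTR miR-342-3p peaks with scores 36 and 23, the lower on an 8mer. EHMT2, which methylates H3K9, had 1 of each.

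Roles with few miR-342-5p peaks were CHD remodellers (7 peaks), DNA methylation (5) and Polycomb repressive complex 2 (none). Their coding miR-342-5p peaks per kb were 0.208, 0.0823 and 0, the last over only 8.21 kb of coding sequence. CHD4, the ATPase of the NuRD complex, had 2 coding peaks of each list, and its miR-342-3p peaks scored 133 and 22 (0.344 per kb), both also inside another annotated gene on that strand. CHD7 had 3 miR-342-5p peaks, and CHD3 and CHD8 had 1 of each list. DNMT1, the maintenance DNA methyltransferase, had miR-342-3p peaks of score 59 in a coding exon and 56 on a 3′UTR site, and 2 miR-342-5p peaks with scores up to 33. TET3, which oxidises 5-methylcytosine, had the highest miR-342-3p score in the 57 genes, 224, in its 3′UTR without a site, and 2 miR-342-5p peaks in the 3′UTR, the higher scoring 19 on an 8mer. TET2 had 1 miR-342-5p peak. In Polycomb repressive complex 2, EZH1 and EED had 1 miR-342-3p peak each, both with score 16. No peak of either list lay in SETD2, EHMT1, EZH2, SUZ12, KDM1A, HDAC1, HDAC2, HDAC5, BCORL1, SMARCA2, SMARCC1, SMARCC2, DNMT3A, DNMT3B or UHRF1. The files do not say whether these mRNAs were present in the cells.

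Whether a gene leaned to one list was asked of every protein-coding gene with at least 6 peaks, against the share of miR-342-5p among all peaks in genes, 59.1%. Of 226 such genes 14 were chromatin regulators, and 6 of them had more miR-342-5p peaks than that share gives at an adjusted p under 0.05, beside 15.9% of the 226 called in that direction. SETD1B had 27 peaks against 1 (two-sided exact binomial test, Benjamini-Hochberg adjusted p = 0.00031), KDM6B 14 against 0 (0.00794), ARID1A 17 against 1 (0.0125), CREBBP and RERE 12 against 0 (0.0171 each) and KMT2A 18 against 2 (0.0281). KMT2B, SETD1A and KAT6A, with 9 against 0, had an adjusted p of 0.0536 in the exact test, and EP300, with 16 against 2, had 0.0551. None of the 14 was called with more miR-342-3p peaks, and none at an unadjusted p under 0.05, beside 3.1% of the 226 called.

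The calls of KMT2A, CREBBP and RERE were lost with scores of at least 10 (exact binomial, adjusted p = 0.0810, 0.0621 and 0.0810) and with coding peaks alone (0.0767, 0.0532 and 0.0532), and that of KMT2A with genes of at least 4 peaks (0.0651). The calls also depended on how closely spaced peaks were counted. In the chromatin regulators, 145 of the 211 miR-342-5p peaks (68.7%, against 41.7% of all miR-342-5p peaks) lay within 20 nt of another, with a median gap of 3 nt, and joining such neighbours left 114 stretches. For miR-342-3p, 3 of 38 peaks (7.89%) had such a neighbour and 36 stretches remained. The longest stretches took in 7 peaks over 769 nt in SETD1B, 7 over 537 nt in KMT2A and 6 over 546 nt in KMT2B. Counted as stretches, SETD1B alone was called, with 14 against 1 (exact binomial, adjusted p = 0.0476). KDM6B had 7 against 0 (0.112), ARID1A 8 against 1 (0.171), RERE 6 against 0 (0.140), KMT2A 8 against 2 (0.312) and CREBBP 4 against 0, too few to test. The density of miR-342-5p over the coding sequence of the 57 genes was then 0.359 stretches per kb, against 0.0741 over all genes.

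Seed sites lay near a minority of peaks. For miR-342-3p, 10 of 38 peaks (26.3%, interval 15.0 to 42.0) had an own 7mer or 8mer, against 20.5% over all genes. For miR-342-5p, 50 of 211 (23.7%, interval 18.5 to 29.9) had one, against 33.1% over all genes. This share depended on how closely spaced peaks were counted. It was 37.7% with neighbours joined and 50% with the highest peak of each gene alone. The same shares over all genes are not given here, and the difference from all genes was not tested. Read on the other strand, no window of either list held a site (exact McNemar test, p = 0.00195 and adjusted 0.00391 in the miR-342-3p list, p = 1.78e-15 and adjusted 1.42e-14 in the miR-342-5p list). The opposite strand was not matched for base content, and cytosine made up a median of 36.6% of the miR-342-5p windows. The 6mer core alone was near another 45 peaks of the miR-342-5p list and 1 of the other.

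Sites of the 2 mimics fell in different places. In the 3′UTR 6 of 12 miR-342-3p peaks had a site, in EP300, NSD1, DNMT1, HDAC7, KDM2A and SETD5, against 1 of 20 in coding exons, that of KMT2C (Fisher's exact p = 0.00573, adjusted 0.00916). Over all genes the shares were 23.5% and 16.3%. Read along the spliced mRNA, the coding peaks of NSD2 and DNMT1 have a site too, which makes 3 of 20 (Fisher's exact p = 0.0493). With the highest peak of each gene alone the difference was 3 of 8 against 1 of 15 and no longer passed (Fisher's exact p = 0.103). For miR-342-5p a site lay near 46 of 199 coding peaks (23.1%) and 2 of 8 3′UTR peaks (Fisher's exact p = 1).

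Among miR-342-5p peaks with a score above 50, 9 of 12 (75%) had a site, against 42.5% of such peaks over all genes. Of the 3 without one, in KMT2A (63), NCOR1 (58) and SETD1B (56), that of NCOR1 has a site once the window is read across the exon junction and that of SETD1B has the 6mer. Of the 58 miR-342-5p peaks with a score under 10, 7 had a site, and the same share over all genes is not given here. The median score was 20 with a site and 12 without. Among miR-342-3p peaks a site lay near 3 of the 10 above 50, against 24.0% of such peaks over all genes. It was 5 of 10 when windows are read across exon junctions. No site lay near the highest, those of TET3 (224) and CHD4 (133). The difference between the lists was not tested. Over the 57 genes, scores had a median of 13 in the miR-342-5p list, against 19 over all genes, and of 23 in the miR-342-3p list, against 24.

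**Figure D3:**
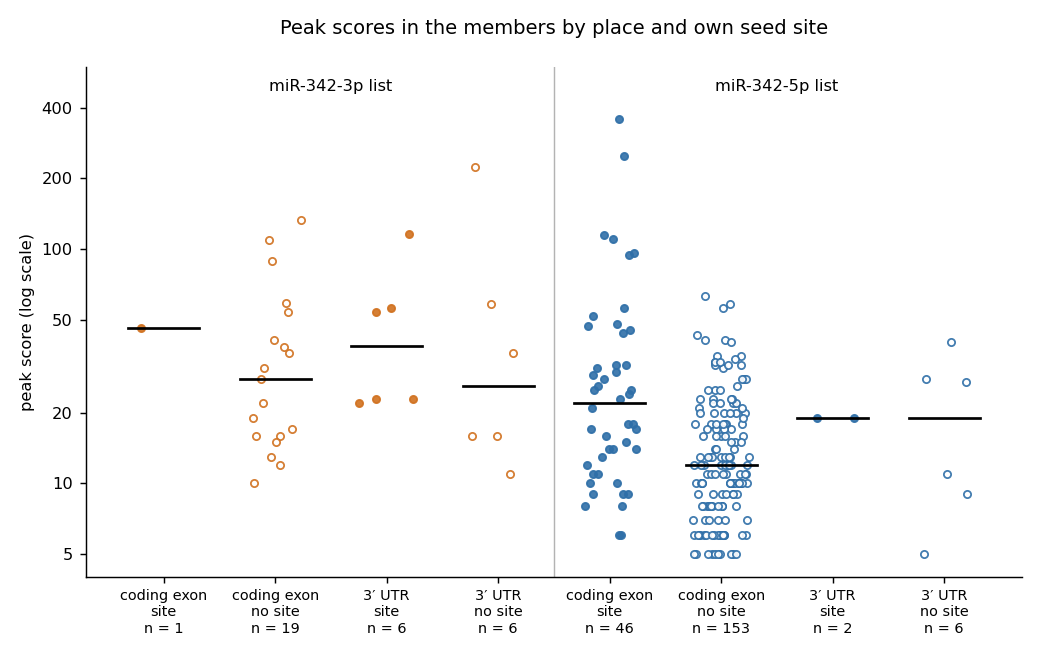
Score of every peak in coding exons and 3′UTRs of the chromatin regulators on a log scale, split by list, place and own seed site, with each bar at the median. Coding miR-342-5p peaks with a site reach 360, those without a site 63, and the highest miR-342-3p peak, at 224, lies in a 3′UTR without a site.

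Read from the sites instead of the peaks, the coding sequences of the 57 genes hold 98 miR-342-5p sites, and 46 of them (46.9%, interval 37.4 to 56.7) had a peak, against 15.1% over all protein-coding genes. With both sides limited to genes that have a peak in either list, the shares were 46 of 84 (54.8%, interval 44.1 to 65.0) and 45.5%. The interval took in the 45.5%, and this limit selects genes by the peaks that are counted. All of the coding sites had a peak in KMT2A (5 of 5), SETD1A, SETD1B, ARID1A and KAT6A (3 of 3 each), and KMT2B and ASXL1 (2 of 2 each). RERE had 3 of 4, CREBBP 2 of 4, KDM6B 2 of 3 and EP400 1 of 6, and BCORL1, with 5 sites, had none.

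Of 35 coding sites for miR-342-3p, 1 had a peak (2.86%, interval 0.506 to 14.5), and the interval took in the 6.93% over all protein-coding genes. Limited to genes with a peak, it was 1 of 30 (3.33%, interval 0.591 to 16.7), against 25.9%. In all these site counts the distance to a summit was taken along the genome. A site across an exon junction from its summit, as in NSD2 and DNMT1, therefore counts as without a peak. In 3′UTRs a peak lay on 4 of 25 miR-342-3p sites (16%, against 4.74% over all protein-coding genes) and on 2 of 17 miR-342-5p sites (11.8%, against 6.62%). With both sides limited to genes with a peak, the miR-342-3p share was 4 of 19 (21.1%, interval 8.51 to 43.3), against 17.2%. The miR-342-5p share was then 2 of 13 (15.4%, interval 4.33 to 42.2), against 24.0%. Both intervals took in the share beside them. These site counts use 1 transcript per gene, whose 3′UTR leaves out the HDAC7 and SETD5 sites for miR-342-3p named above. Over whole transcripts, 5′UTRs included, a peak lay on 8 of 17 8mers and 40 of 101 7mers for miR-342-5p (Fisher's exact p = 0.601). For miR-342-3p it lay on 2 of 8 and 3 of 55 (Fisher's exact p = 0.117), so no difference by site type passed.

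**Figure D4:**
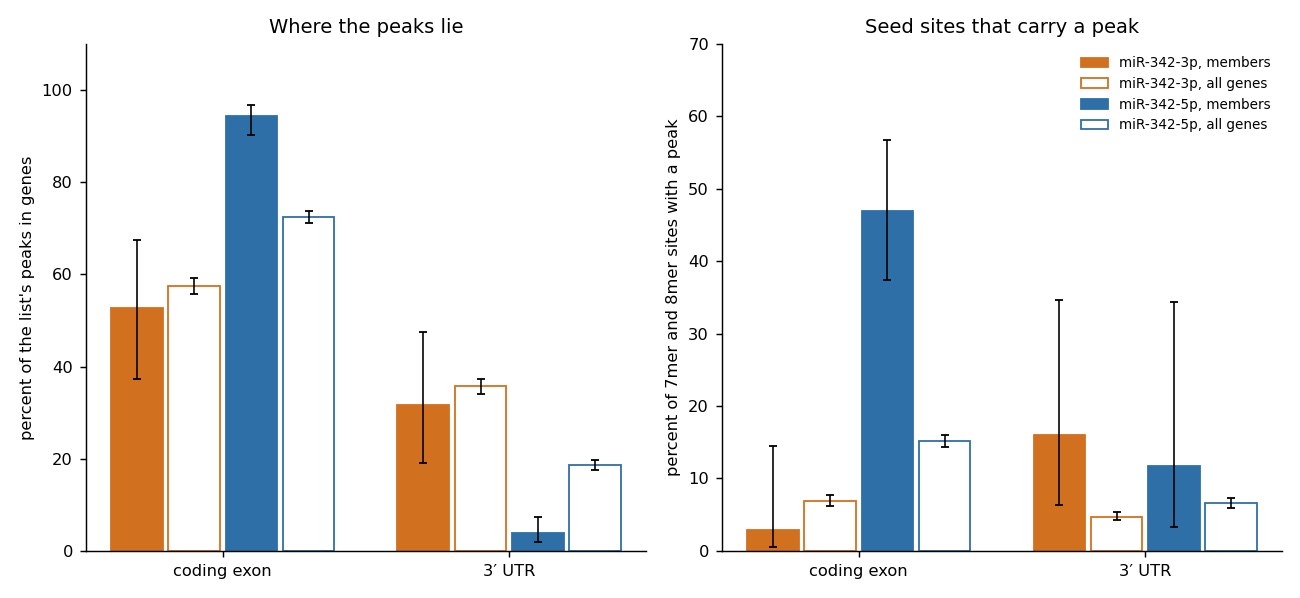
Left, percent of each list's peaks in genes that lie in coding exons or 3′UTRs. Right, percent of 7mer and 8mer sites that carry a peak; filled bars are the chromatin regulators, open bars all peaks in genes (left) or all protein-coding genes (right), and error bars are 95% Wilson intervals. Coding exons hold 94.3% of miR-342-5p peaks. A peak lies on 46.9% of the coding sites for miR-342-5p against 2.86% of those for miR-342-3p. Sites across an exon junction from a summit count as without a peak.

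The coding windows under miR-342-5p peaks were rich in proline codons, which begin with CC. A window spanned 50 nt on each side of the summit, and its median share of proline codons was 18.2%, against 11.8% for the whole proteins of the same peaks, with the window higher in 144 of 198 peaks (72.7%). Other genes showed the same order at lower levels, 9.09% against 7.32%, with 70.2% of windows higher. Windows under miR-342-3p peaks were lower, at 3.03% against 8.04%, and higher than their protein in 4 of 19. Cytosine made up a median of 37.6% of the 199 miR-342-5p coding windows and 21.8% of the 20 of miR-342-3p. The proline share was 18.2% in miR-342-5p windows without a site and 16.7% in those with one.

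Most coding miR-342-5p peaks were also in long exons. Exons of at least 500 coding nt held 124 of 199 (62.3%, interval 55.4 to 68.8), against 30.5% in other genes and 32.6% of the coding sequence of the 57 genes. For miR-342-3p they held 3 of 19 (15.8%). Proteins of the 57 genes are 7.90% proline at the median, against 5.60% over all protein-coding genes, and those with the densest miR-342-5p peaks were among the richest, with 16.1% in KDM6B, 15.6% in SETD1B and 14.4% in RERE. Proline content did not order the genes by itself. BCORL1 (12.5%) and SMARCC2 (11.2%) had no peak, ARID1B (11.9%) had 1, and KMT2A (8.99%) had 18.

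**Figure D5:**
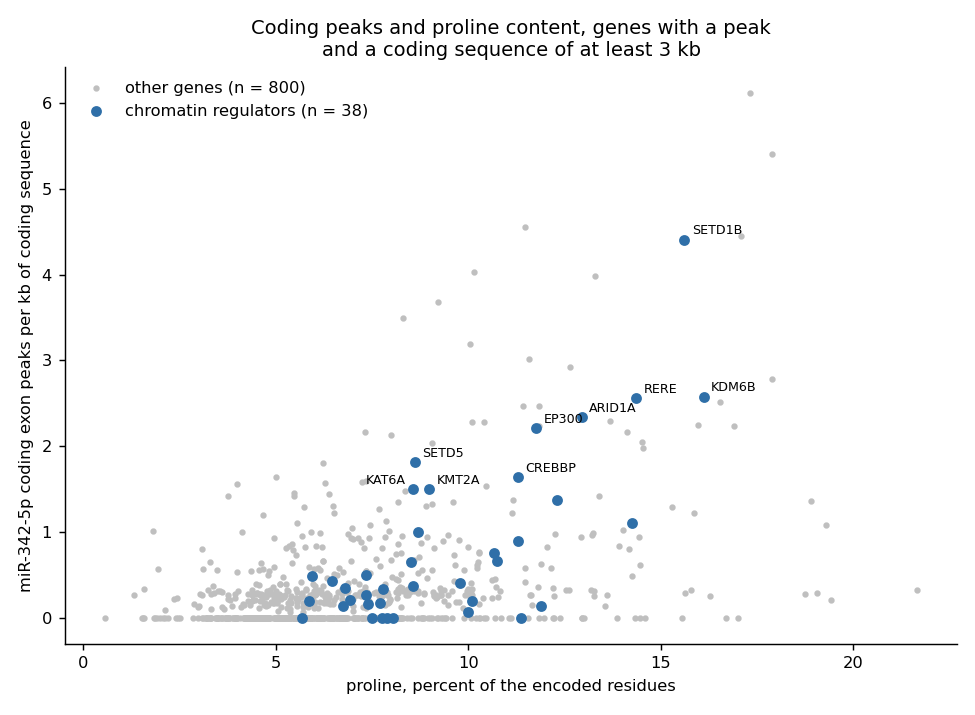
miR-342-5p coding exon peaks per kb of coding sequence against the proline percent of the protein, for 38 chromatin regulators and 800 other genes that have a peak and at least 3 kb of coding sequence. SETD1B stands at 4.41 peaks per kb and 15.6% proline, while several genes with over 10% proline lie at or near 0.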

How the data were processed

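Ago-HITS-CLIP was performed on 9 cultures of MDA-MB-231HM cells, 3 per mimic. Per the labels and the methods, the authors trimmed reads with cutadapt 1.13, mapped them to hg19 with TopHat2 2.0.13, used UMI-tools and Samtools, and called peaks with MACS2 2.1.1.20160309 for each mimic over the negative control. Each deposited list gives the start, end, strand, summit and score of peaks merged over 3 libraries. The score deposited by the authors is described as reads above background and was used as given. The scaling between libraries is not given in the sources used here. Depth per library is unknown.

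Peaks were placed on GENCODE release 44 lifted to GRCh37 (basic transcripts), with 3′UTR taken before coding exon, 5′UTR and intron, using the midpoint, and 1 coding transcript per gene. Sites were searched within 50 nt of summits in the genome. Shares have 95% Wilson intervals and densities exact Poisson intervals. Shares were compared with Fisher's exact or McNemar's exact test, and the balance of lists per gene with exact binomial tests over all genes with at least 6 peaks, with Benjamini-Hochberg adjustment. All are two-sided and treat peaks as independent. Near-copies were sought with BLASTN 2.17.0 (at least 95% identity over 90% of the peak). Python 3.11.15, SciPy 1.17.1 and pysam 0.24.0 were used, and the site search, the placement and the balance test were tested on simulated data. Values are given in full for every gene among the 6 with most peaks, the highest scores or the highest coding densities (at least 2 peaks) in a list, with a 3′UTR 8mer at a summit, called by the balance test, or without a peak. The genes and lists were chosen with earlier results of these data known. The alternatives included other score, window, site and peak minima and the highest peak per gene. For the place of the midpoint they were coding exon before 3′UTR, midpoints in 1 gene alone and midpoints in an exon. Joined peaks, spliced windows and peaks without near-copies were chosen after seeing the data. Some results for single genes outside the 57 are not reported here.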

Additional observations from a re-analysis of the deposited data

How the results depend on the processing

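Over the alternatives run, 81 summary values kept their direction and their side of the threshold or moved little, 16 moved, 6 fell short of the threshold and 1 changed sign. With scores above 50 alone, the order of the lists turned, with a miR-342-3p peak in 8 genes and a miR-342-5p peak in 7, coding densities were 0.0171 and 0.0377 peaks per kb, the coding exon difference was 41.7 points (Fisher's exact p = 0.0557), and 75% of miR-342-5p peaks had a site. The strand difference for miR-342-3p sites was then 30 points (exact McNemar p = 0.25). With scores of at least 10 the miR-342-5p density was 0.490. With 8mers alone the site shares were 10.5% and 4.27%, the miR-342-3p strand difference 10.5 points (exact McNemar p = 0.125) and its 3′UTR minus coding difference 16.7 points (Fisher's exact p = 0.133). Read along the spliced mRNA, the 3′UTR minus coding difference for miR-342-5p, which passed no test, was -0.63 points (Fisher's exact p = 1). With 6mers added, 45.0% of miR-342-5p peaks had a site. With the highest peak per gene, 50% did, and the miR-342-3p strand and 3′UTR differences were 20 points (exact p = 0.0625) and 30.8 points (exact p = 0.103). With neighbouring peaks joined, the miR-342-5p density was 0.359, the site share 37.7% and the genes called 1. Calls numbered 3 with scores of at least 10, 3 with coding peaks alone and 10 against equal shares of the lists. The causes were not tested. No paired analysis was possible because the deposited lists merge the replicates, and leaving out a replicate could not be run for the same reason. Depth is unknown, so a gene without a peak is not shown to be unbound.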

Other observations

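The 99 further chromatin genes held 282 peaks. Of these 45 were of miR-342-3p, in 26 of the genes, and 237 of miR-342-5p, in 36. Among the genes called with more miR-342-5p peaks in the same balance test were SPEN, a corepressor, with 36 against 0, KMT2D, an H3K4 methyltransferase, with 33 against 2, and SRCAP, a remodelling ATPase, with 23 against 1. No peak of either list lay in 52 of the 99.

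One miR-342-3p peak, with score 24, lay on the strand opposite to EP300, in the antisense gene EP300-AS1, on a run of 43 nt of G and U. It was not counted for EP300.

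The reading frame of the 46 coding miR-342-5p sites with a peak was 1, 2 and 3 in 16, 20 and 10, and that of the 52 without a peak 15, 23 and 14. No difference was tested.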
